A study of Mus musculus with 8 samples.

Results

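The genes that encode the protein components of the cytosolic ribosome were followed in mouse liver ductal cells as these passed from the freshly isolated state into organoid culture. Members were the protein-coding genes whose symbols begin with Rpl or Rps and a number, together with Rplp0, Rplp1, Rplp2 and Rpsa, without pseudogenes and without the Rps6k kinases. This gave 84 members among the 47729 gene identifiers of the deposited table, 52 of the large subunit and 32 of the small subunit, and 7 of the 84 are paralogs of another member. The cells were taken from healthy livers of male C57/B6 adults and sorted by flow cytometry for EpCAM, a surface protein of ductal epithelium. Fresh cells (0 h, 2 libraries) were compared with cells kept in Matrigel, a basement membrane gel, in organoid medium for 12 h (2 libraries), 24 h (1 library) and 6 days (organoids, 2 libraries). A further library is titled 48h but carries a time point of 24 h in its other labels, so it is called here by its title and was not merged with the 24 h library. No genotype or agent separates the groups other than the culture itself, and the labels do not say whether the libraries of a group came from separate animals or cultures, so a p-value speaks to the spread among these libraries, which may be technical.

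Each cytosolic ribosome is assembled from ribosomal RNA and one copy of most of these proteins, with the P-stalk proteins as the usual exception. Their messages are among the most abundant in growing cells, and many begin with a run of pyrimidines at the very start of the transcript, the terminal oligopyrimidine or TOP motif, through which translation of the whole family is tuned to nutrient and growth signals by the TOR kinase and the RNA-binding protein Larp1. Mammalian genomes also hold large numbers of processed pseudogenes copied from these messages, which leave many stretches of sequence that a short read cannot assign to a single gene.

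Library depth, estimated from the smallest step between values, corresponded to 13823460 to 28434757 reads, and 3 reads on a 1 kb transcript were worth 0.106 to 0.217 RPKM (reads scaled to gene length and to library size). Between 13895 genes, in the 24 h library, and 21132 genes had a value above 0. Summed RPKM lay between 357129 and 369701 in 7 libraries and at 446034 in organoid library 1, which stands apart from organoid library 2 in many members. Many of the counts and medians over members and lists in organoids are therefore also given without organoid library 1. The 10 ductal markers summed to between 15592 and 32207 RPKM and at least 9 of the 10 reached 1 RPKM in each of the 8 libraries. The 8 hepatocyte markers summed to 959 and 953 RPKM in the fresh libraries and to between 35.5 and 213 RPKM in the cultured ones, with none at 0 in the former and 2 to 4 at 0 in the latter. The 213 RPKM was in organoid library 1, where Trf read 206 RPKM, above its fresh 15.6 and 12.4, and Alb read 0.0309 RPKM. Immune markers summed to between 4.88 and 29.6 RPKM, endothelial markers to at most 3.59, mesenchymal markers to at most 13.5 and erythroid markers to at most 50.3 RPKM. The 4 mesothelial markers summed to between 37.9 and 51.0 RPKM in fresh and 12 h libraries, 137 at 24 h, and 419 to 488 RPKM in the 48h-titled and organoid libraries, with 2 or 3 of the 4 at 0 in cultured cells. The rise of this sum was that of Msln, from 29.3 and 21.4 RPKM in fresh cells to 488 and 475 in organoids. Gpm6a went the other way, from 16.6 and 28.7 to 0 and 0.0148 RPKM. Upk3b and Upk1b were at most 0.776 RPKM in fresh cells and at 0 in every cultured library. Mitochondrially encoded genes held 3.92 to 9.87% of summed RPKM, least in organoid library 1. The part of these signals in the results below was not tested, and in bulk RNA a change in the mixture of cells and a change in RNA per cell cannot be told apart.

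The sequence at the start of these genes was examined because the TOP motif is known from many of them. In RefSeq (GRCm38.p6), 64 of the 84 members had an annotated start, and 54 of these had only 1. The longest unbroken run of C or T on the sense strand was measured from 10 bases before to 20 bases after the start. For a gene with more than 1 start, the start with the longest run was used. Counted by start, 11.2% of all 32851 starts had a run of at least 8. A run of at least 8 pyrimidines was found in 24 of the 64 members (37.5%) and in 3517 of 27025 genes with a start (13.0%), and the median longest run was 7 against 5 bases. Below are windows of long-tract members, then of 4 members that passed a test of change and of 1 member with a short run, with the longest run in capitals. They are at chr7:109519185-109519214 (plus strand, Rpl27a), chr7:45128726-45128755 (minus, Rpl13a), chr4:86857348-86857377 (minus, Rps6), chr7:141447641-141447670 (plus, Rplp2), chrX:37085203-37085232 (minus, Rpl39), chr17:24720053-24720082 (plus, Rps2), chr13:90923112-90923141 (plus, Rps23), chr9:66946076-66946105 (plus, Rps27l) and chrX:74270806-74270835 (plus, Rpl10).
Rpl27a: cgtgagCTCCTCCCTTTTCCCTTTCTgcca
Rpl13a: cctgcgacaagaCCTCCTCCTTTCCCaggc
Rps6: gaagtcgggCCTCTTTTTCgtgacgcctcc
Rplp2: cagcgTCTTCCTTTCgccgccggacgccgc
Rpl39: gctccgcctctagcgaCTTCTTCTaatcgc
Rps2: gtcgagatctcgcgCTTCTTggagcactat
Rps23: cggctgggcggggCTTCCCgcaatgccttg
Rps27l: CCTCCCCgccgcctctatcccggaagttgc
Rpl10: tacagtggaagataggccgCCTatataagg
The runs shown are 20 bases in Rpl27a, 14 in Rpl13a, 10 in Rps6 and in Rplp2, 8 in Rpl39, 7 in Rps27l, 6 in Rps2 and in Rps23 and 3 in Rpl10. Such a run is a description of these letters at the annotated start, which need not be the base where transcription begins.

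The family as a whole took a larger share of the deposited signal in each of the 6 cultured libraries than in either fresh library. Its summed RPKM was 1.16% and 1.32% of the library total in the 2 fresh libraries and 2.24% and 2.34% in the 12 h libraries. The 24 h library stood at 2.03%, the 48h-titled one at 2.32%, and the organoid libraries at 6.32% and 2.50%. The fresh and 12 h libraries therefore did not overlap, and organoid library 2 lay close to the 12 h and 48h values whereas organoid library 1 lay far above all others. Against a fresh mean of 1.24% ± 0.107 (SD, n = 2), the 12 h mean of 2.29% ± 0.0739 (SD, n = 2) was 1.85 times as high. The organoid mean of 4.41% ± 2.70 (SD, n = 2) was 3.56 times the fresh mean, or 2.02 times without organoid library 1 and 5.10 times without organoid library 2. Set against 12 h, the organoid share was 1.93 times as high, and 1.09 times without organoid library 1. These ratios are descriptions with no test, since they concern a sum over the members.

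**Figure D1:**
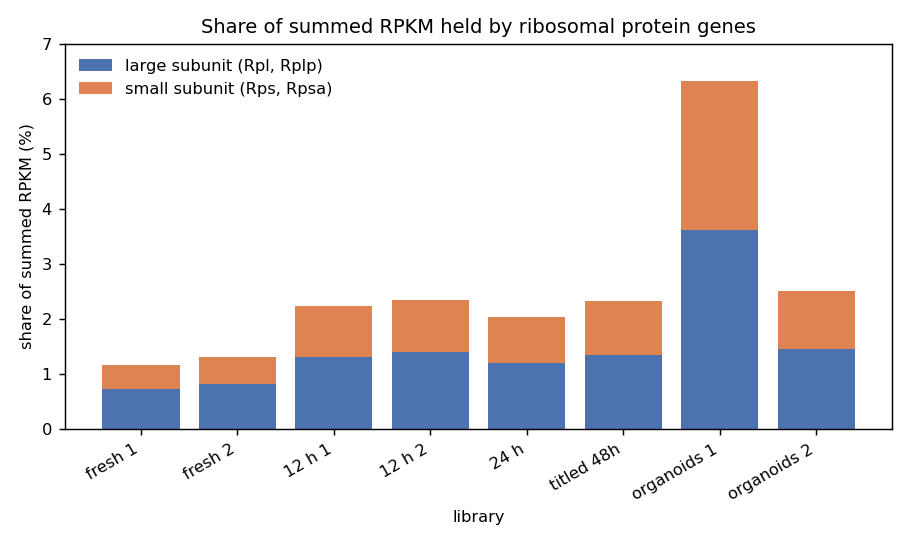
Bars give the percent of each library's summed RPKM (y axis, from 0) held by members of the large subunit (blue) and of the small subunit (orange) in the 8 libraries (x axis). The fresh bars reach 1.16 and 1.32%, the other libraries 2.03% or more, and organoid library 1 reaches 6.32%.

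Both subunits took part in this. Large subunit genes held 0.721% and 0.818% of summed RPKM in fresh libraries, 1.31% and 1.41% at 12 h, and 3.62% and 1.45% in organoids. Small subunit genes held 0.443% and 0.497% in fresh libraries, 0.931% and 0.934% at 12 h, and 2.71% and 1.05% in organoids. The ratio of large to small subunit signal was 1.63 and 1.65 in fresh libraries and lay between 1.34 and 1.51 in the 6 cultured ones, so the small subunit sum was relatively higher in culture. Pseudogenes named after these genes, 274 in the table, held 0.0593% and 0.0566% of the summed RPKM in fresh libraries, 0.0661 to 0.0832% in the 24 h, 12 h, 48h and second organoid libraries, and 0.140% in organoid library 1. Pseudogene signal was thus highest in the library where the members were highest, and its part in the members' values was not tested.

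Levels differed widely between members. On the RPKM scale, which is per length, among the highest means over the 8 libraries were those of Rpl4 and Rpl8, large subunit proteins at 1051 and 961 RPKM, of the stalk base Rplp0 at 638 RPKM and of the stalk protein Rplp1 at 550 RPKM. In each library the 5 highest members there held 35.8 to 44.1% of the members' summed RPKM. The median tested member had a mean of 35.3 RPKM, 21 members had means of at least 100 RPKM and 11 tested members had means under 5 RPKM. At the bottom were Rpl24 at 1.36 RPKM and Rpl23a at 2.80 RPKM, and Rps6, the phosphorylated target of the S6 kinases, was listed at only 3.03 RPKM. The paralogs Rpl10l, Rpl39l and Rpl3l had means of 0.0523, 0.0296 and 0.0188 RPKM and were the 3 members not tested, for want of at least 1 RPKM in 2 libraries. Of the other members, 76 were at 1 RPKM or more in all 8 libraries. The order of levels was much alike in all libraries, with Spearman's rho between 0.906 and 0.986 for the 81 tested members in any pair of libraries, which share gene lengths and sequence.

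Levels went with how much of each message can be told from other genes. For each member, the share of 50-base stretches of its principal transcript that occur in no other annotated gene of the GENCODE M21 gene set was counted. In the 27 tested members with under 25% of such unique stretches the median of mean levels was 10.7 RPKM, in the 26 with 25 to 50% it was 37.9, in the 18 with 50 to 75% it was 78.4, and in the 10 with 75% or more it was 275 RPKM. Across the 81 tested members Spearman's rho between unique share and mean level was 0.63, a description across genes that are no independent replicates and that share libraries. Rpl8 is 92.1% unique and Rpl4 83.5%, whereas Rps27 is 1.35% unique, Rpl5 6.16%, Rpl10 7.87% and Rps6 15.4%. How reads that fit several genes were counted is not stated in the labels or the table, so the low values of Rps6, Rps27, Rpl5 and their like are not read as low expression.

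**Figure D2:**
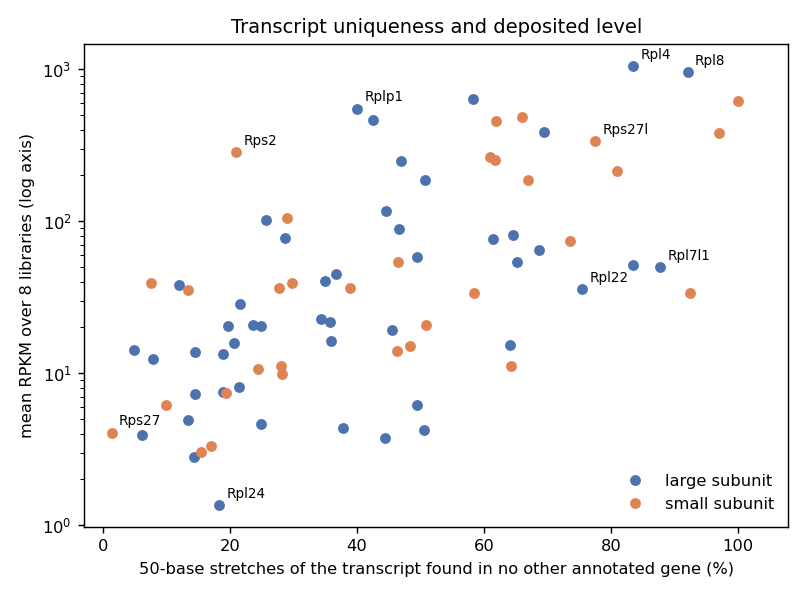
Each point is 1 of the 81 tested members, with the percent of its 50-base stretches found in no other annotated gene on the x axis and its mean RPKM over 8 libraries on the logarithmic y axis (large subunit blue, small subunit orange). Members of low uniqueness such as Rps27 (1.35%) lie low and Rpl8 and Rpl4 lie high, with Rps2 (20.97% unique, 285 RPKM) well above its neighbours.

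The first comparison asked what 12 h of culture did to the individual members. Over both 12 h libraries 60 of the 81 tested members lay above both fresh libraries, against 38.6% of all 12900 genes tested, and 4 lay below both, against 23.6%. Those 4 were Rpl10, Rps12, Rps13 and Rps27a, each with under 50% unique sequence. Of the 21 members with means of at least 100 RPKM, all 21 were above both fresh libraries. On the log2(RPKM + 1) scale the median difference of the 81 members was 0.69, with 69 above 0, while that of all genes tested was 0.24 and that of 276 other protein-coding genes with short exons (under 1000 bases in sum) was 0.20. With each library centred on its median the members' 12 h median was 0.33, beside -0.13 for all genes tested.

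Few single members passed. In limma with Benjamini-Hochberg adjustment over all genes, 1 of 81 members rose at 12 h, where 3.09% of all genes rose, and none fell, where 3.72% of all genes fell. At an unadjusted p under 0.05 the counts were 13 higher and 0 lower members, which is 16.0% of members, beside 16.1% and 11.0% of all genes. The share of members called higher was thus no larger than that of all genes. Over all genes the calls numbered 398 higher and 480 lower, and 300 and 839 with libraries centred on their medians. The member that rose was Rpl29 (ENSMUSG00000048758, chr9:106429454-106431568, plus strand), a large subunit protein. Its fresh libraries read 8.81 and 11.3 RPKM and its 12 h libraries 32.9 and 41.3 RPKM, so the groups were well separated, and the ratio of means was 3.69. The log2 difference was 1.79 (SE 0.34, limma adjusted p = 0.0365). No member passed when any 1 of the 4 fresh or 12 h libraries was left out, while leaving out organoid library 1 or 2, which enter this comparison through the shared spread, gave 9 and 11 members. Over all 12900 genes, 0 rose without fresh library 1, fresh library 2 or 12 h library 1 and 0.194% rose without 12 h library 2. Without organoid library 1 or 2 the members called were 11.1% and 13.6%, beside 4.26% and 4.23% of all genes. Rps2 and Rps23 had differences as large, 1.87 and 1.87, with limma adjusted p = 0.0662 and 0.0622.

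At 6 days of culture most members stood above fresh cells, with a large gap between the 2 organoid libraries. Both organoid libraries were above both fresh ones in 60 of 81 members, against 38.1% of all genes, and below both in 8 members, against 26.6%. Rpl9, Rpl10, Rpl12, Rpl24, Rpl27, Rps13 and Rps27a were among the 8, of which 7 have under 50% unique sequence. The median log2 difference was 1.46 over the members (70 of 81 above 0), 0.17 over all genes tested and 0.66 over the other short genes. It was 1.21 over the large subunit and 1.86 over the small subunit, or 0.69 and 0.96 without organoid library 1, and the difference between subunits was not tested. Without organoid library 1 the members' median was 0.82, and without organoid library 2 it was 2.05. The medians of all genes tested were then 0.34 and -0.05.

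In limma 6 of 81 members (7.41%) rose from fresh cells to organoids, where 5.15% of all genes rose, and no member fell, where 4.94% of all genes fell. At an unadjusted p under 0.05 there were 50 higher members (61.7%) and 1 lower (Rpl10), beside 17.4% and 12.1% of all genes. Over all genes the limma calls were 664 higher and 637 lower, and 556 and 836 with libraries centred on their medians. Those described here are Rps2, Rps23 and Rps27l of the small subunit and Rpl29 and Rpl39 of the large subunit. No member passed without organoid library 1 or without either fresh library, only Rpl29 passed without either 12 h library, and 46 members (56.8%) passed without organoid library 2. Of all genes, 0 of 12900 rose without either fresh library, 0.481% without organoid library 1 and 5.65% without organoid library 2. Under the 8 other settings tried with all libraries kept, Rpl29 passed in 8, Rps2, Rps23 and Rpl39 in 6 each and Rps27l in 4.

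Rps2 (ENSMUSG00000044533, chr17:24718116-24721929, plus strand), a protein near the entry of the mRNA channel whose start window was printed above, read 78.3 and 86.3 RPKM in fresh cells, 291 and 317 at 12 h, 257 at 24 h, 318 in the 48h-titled library, and 673 and 259 in organoids. Every cultured library was well above both fresh ones, and organoid library 2 lay below both 12 h libraries. Its organoid to fresh ratio of means was 5.66 and its log2 difference 2.33 (SE 0.48, limma adjusted p = 0.0334). Only 20.97% of its 50-base stretches are unique, and 71 annotated pseudogenes share at least one of the others.

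Rps23 (ENSMUSG00000049517, chr13:90922958-90924950, plus strand), a protein of the decoding centre, was lower, at 5.72 and 3.67 RPKM in fresh cells, 17.1 and 22.3 at 12 h, 12.4 at 24 h, 10.5 in the 48h-titled library, and 33.1 and 16.6 in organoids. It was above both fresh libraries in every cultured one, with an organoid to fresh difference of 2.13 (SE 0.47, limma adjusted p = 0.0395).

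Rpl39 (ENSMUSG00000079641, chrX:37082520-37085402, minus strand) encodes a very small protein of the peptide exit tunnel and is 83.5% unique. It read 18.8 and 18.6 RPKM in fresh cells, 38.5 and 52.0 at 12 h, 33.5 at 24 h, 45.7 in the 48h-titled library, and 150 and 56.1 in organoids. Organoid libraries were both above the 12 h ones, and the difference from fresh cells was 2.23 (SE 0.50, limma adjusted p = 0.0408). Rpl29 held at 33.9 and 33.4 RPKM in organoids after its rise at 12 h, with 18.8 at 24 h and 47.6 in the 48h-titled library. Its organoid libraries nearly coincided, and its difference from fresh cells was 1.66 (SE 0.34, limma adjusted p = 0.0324). Rpl29 shares stretches with 81 pseudogenes and is 21.5% unique.

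**Figure D3:**
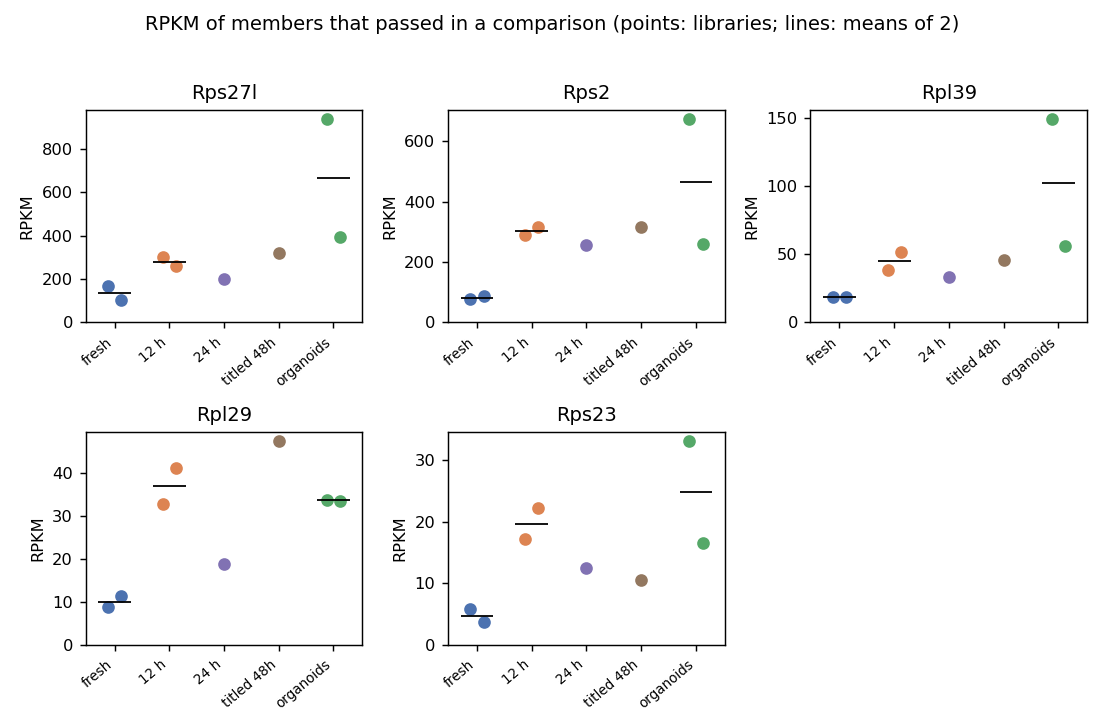
Points give RPKM (y axes, from 0) in each library, by group, of 5 members that rose in at least 1 comparison, with a line at the mean of groups of 2. All organoid points lie above the fresh points, organoid library 1 lies far above library 2 in the genes other than Rpl29, and in Rpl29 they read 33.9 and 33.4.

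Organoids and 12 h cells were then set against each other, a comparison that shares its 12 h libraries with the first comparison above and its organoid libraries, library 1 included, with the second. Of 81 members, 31 were above both 12 h libraries in both organoid libraries, against 20.8% of all genes, and 5 below both (Rpl9, Rpl10, Rpl23a, Rpl27, Rps6), against 24.1%. No member passed in limma in either direction, where 1.38% of all genes rose and 0.62% fell, and at an unadjusted p under 0.05 there were 2 higher (Rpl22 and Rpl15) and 1 lower (Rpl27), beside 9.80% and 9.34% of all genes. Over all genes the calls were 178 higher and 80 lower, and 283 and 74 with libraries centred on their medians. The members' median difference was 0.66 and that of all genes -0.09. Without organoid library 1 the members' median was -0.012, so the difference between 6 days and 12 h rested on that library, and without organoid library 2 it was 1.26 with 14 members called (17.3%, beside 1.57% of all genes).

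The 2 single libraries between allow no test. In the 24 h library 13 members lay at least 1 above the fresh mean on the log2 scale and outside both fresh libraries, against 23.6% of all genes, and 3 lay as far below (Rpl21, Rps13, Rps27), against 26.9%. In the library titled 48h there were 21 members above, against 26.1%, and 1 below, Rpl9, against 14% of all genes. Members past this fold were therefore fewer than, or close to, the share of all genes. The members' median differences from fresh cells were 0.50 at 24 h and 0.72 in the 48h-titled library, beside -0.07 and 0.30 for all genes.

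**Figure D4:**
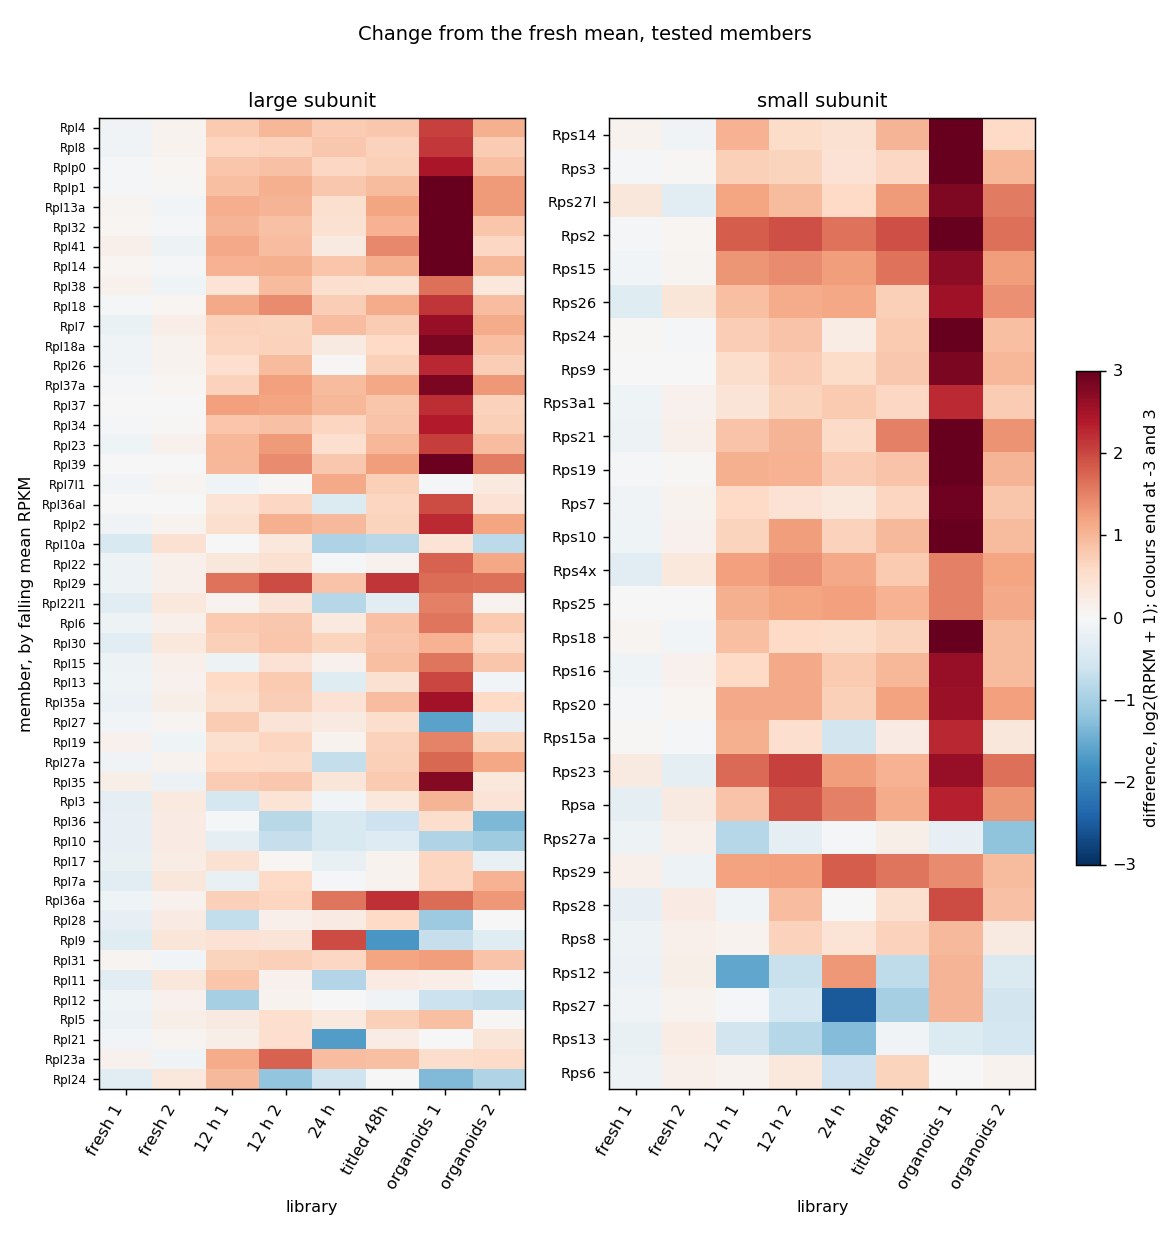
Colours give tested members' log2(RPKM + 1) minus the mean over the 2 fresh libraries (rows, large subunit at left and small subunit at right, by falling mean level; columns, libraries). Abundant members are shifted upward together in cultured libraries and most in organoid library 1, and members that go the other way, such as Rpl10, Rps13 and Rpl24, lie among the less abundant rows.

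The gap between the organoid libraries ran through nearly the whole family. Organoid library 1 exceeded library 2 in 71 of 81 members with a median ratio of 2.31, including all 21 members with means of at least 100 RPKM. Of all genes tested the median ratio was 0.770, and of the other short genes 1.20. Within the fresh pair the members' median ratio of library 1 to 2 was 0.860, and within the 12 h pair it was 0.913. Of the 10 members not higher in library 1, 9 have under 50% unique sequence, and the other is Rpl7l1. Library 1 had the lowest estimated depth and the highest summed RPKM, and the part of either in this gap was not tested.

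The acidic stalk, which recruits translation factors, was measured through 3 members. Rplp0 read 306 and 326 RPKM in fresh cells, 565 and 578 at 12 h, 485 at 24 h, 518 in the 48h-titled library, and 1737 and 593 in organoids. Rplp1 read 213 and 227 in fresh cells, 411 and 462 at 12 h, 388 at 24 h, 425 in the 48h-titled library, and 1741 and 535 in organoids. Rplp2 read 18.3 and 21.2, then 27.9 and 42.5, 39.5, 31.8, and 97.1 and 46.3 RPKM in the same order. Each stalk gene was higher in every cultured library than in both fresh ones, and none passed. The organoid to fresh differences were 1.68 (SE 0.53) for Rplp0, 2.13 (SE 0.56) for Rplp1 and 1.72 (SE 0.45) for Rplp2, with limma adjusted p = 0.0932, 0.0616 and 0.0606.

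The most abundant members moved alike without passing. Rpl4, an early-binding protein of the large subunit with an extension into the exit tunnel, read 506 and 588 RPKM in fresh cells, 936 and 1085 at 12 h, 932 at 24 h, 953 in the 48h-titled library, and 2260 and 1145 in organoids. Rpl8, beside the peptidyl transferase centre, read 490 and 562, 826 and 854, 922, 853, and 2285 and 893 RPKM in the same order. In both genes the fresh and cultured values never overlapped. Their organoid to fresh differences were 1.56 (SE 0.44) and 1.44 (SE 0.51), with limma adjusted p = 0.0734 and 0.116.

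Rpl5 and Rpl11, which join the 5S ribosomal RNA and bind Mdm2 when ribosome assembly is disturbed, were both low in these values. Rpl5 read 2.37 and 3.27 RPKM in fresh cells, 3.54 and 4.35 at 12 h, 3.67 at 24 h, 5.21 in the 48h-titled library, and 6.07 and 2.90 in organoids. Rpl11 read 2.87 and 5.20, 7.75 and 4.33, 1.66, 4.78, and 4.61 and 3.81 RPKM in the same order. Fresh and organoid values overlapped in both genes, and the organoid to fresh differences were 0.47 (SE 0.49) and 0.09 (SE 0.50), with limma adjusted p = 0.567 and 0.928. Rps6, with its long pyrimidine run at the start, read 2.36 and 3.17 RPKM in fresh cells, 3.01 and 3.63 at 12 h, 1.44 at 24 h, 4.90 in the 48h-titled library, and 2.78 and 2.99 in organoids, so its fresh and organoid values overlapped. Rpsa, the laminin receptor homologue of the small subunit, read 3.98 and 6.21 in fresh cells, 9.77 and 21.1 at 12 h, 16.2 at 24 h, 11.9 in the 48h-titled library, and 29.3 and 14.1 in organoids. Rpsa was above both fresh libraries in each cultured one, with an organoid to fresh difference of 1.84 (SE 0.55, limma adjusted p = 0.0815).

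Paralogs of ribosomal proteins can replace the main copy in some tissues, and 7 pairs could be compared by level and by coding sequence. Rps27l differs from Rps27 at 3 of 84 residues in the translated GENCODE M21 coding sequences (96.4% identity), yet 77.6% of its 50-base stretches are unique, against 1.35% for Rps27. Rps27l (ENSMUSG00000036781, chr9:66946086-66949516, plus strand) read 168 and 105 RPKM in fresh cells, 302 and 259 at 12 h, 201 at 24 h, 321 in the 48h-titled library, and 936 and 396 in organoids. It rose from fresh cells to organoids by 2.19 on the log2 scale (SE 0.50, limma adjusted p = 0.0414) and was the only paralog to pass. It missed the threshold with centring, without a filter, with a pseudocount of 0.1 and with only the groups compared, and limma adjusted p ran from 0.0214 to 0.342 over all alternatives and left-out libraries. Rps27 was listed at 4.34 and 5.15 in fresh cells, 4.53 and 3.0 at 12 h, 0 at 24 h, 1.88 in the 48h-titled library, and 10.7 and 2.89 in organoids. With so little unique sequence in Rps27, the order of the pair cannot be read from these values.

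Rpl22l1 shares 70.3% of aligned residues with Rpl22. Rpl22 read 20.6 and 25.5 RPKM in fresh cells, 29.1 and 32.0 at 12 h, 22.0 at 24 h, 25.1 in the 48h-titled library, and 80.3 and 52.3 in organoids. Its organoid values lay above all others, with a difference from fresh cells of 1.46 (SE 0.36, limma adjusted p = 0.0513) and from 12 h cells of 1.06 (SE 0.36, limma adjusted p = 0.184). Rpl22l1 read 14.6 and 23.0, 19.9 and 24.5, 9.77, 14.6, and 54.5 and 19.9 RPKM in the same order, with organoid library 2 inside the fresh range. Rpl36al and Rpl36a encode the same 106 residues. Rpl36al read 29.1 and 28.2 RPKM in fresh cells, 38.7 and 44.3 at 12 h, 21.2 at 24 h, 45.1 in the 48h-titled library, and 113 and 39.2 in organoids. Rpl36a read 2.30 and 2.91, 4.87 and 4.62, 9.94, 15.3, and 10.4 and 7.86 RPKM in the same order. Only 36.7% of Rpl36al and 14.5% of Rpl36a is unique, so the order of this pair cannot be read from these values either.

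Rpl7l1, a distant relative at 40.7% identity to Rpl7 that acts in assembly of the large subunit, kept to another pattern than the family's median. It read 37.6 and 41.8 RPKM in fresh cells, 36.2 and 40.9 at 12 h, 87.9 at 24 h, 66.0 in the 48h-titled library, and 38.2 and 48.9 in organoids. The single 24 h and 48h libraries were thus highest, and the fresh, 12 h and organoid values overlapped, with an organoid to fresh difference of 0.12 (SE 0.32, limma adjusted p = 0.832). Rpl7 itself read 35.8 and 47.4, 67.5 and 65.5, 78.8, 71.1, and 258 and 90.6 RPKM in the same order. The 3 untested paralogs, known from testis and muscle, were close to 0. Rpl39l was at 0.237 RPKM in fresh library 1 and listed at 0 elsewhere, Rpl3l was at most 0.0641 and Rpl10l at most 0.212 RPKM, beside Rpl3 at 7.61 to 24.0 and Rpl10 at 7.42 to 20.04 RPKM.

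To see which members departed from the family, each library's median over the tested members was subtracted from every gene and the fit repeated. This centres the members on their own median and shifts all other genes by the family's change. A smaller share of members than of all genes is thus partly built in, and no conclusion is drawn from setting the shares side by side. Relative to the family no member was called at 12 h, where 8.64% of all genes were, and 1 had an unadjusted p under 0.05. In organoids against fresh cells 3 members were called, all lower, where 21.1% of all genes were called, and 11 had an unadjusted p under 0.05. In organoids against 12 h none was called, where 2.55% of all genes were, and again 1 had an unadjusted p under 0.05. The 3 members were Rpl24, Rpl10 and Rpl27, at -2.46 (SE 0.79), -2.33 (SE 0.86) and -2.27 (SE 0.84) relative to the family, with limma adjusted p = 0.0151, 0.0360 and 0.0363. None was called when organoid library 1, fresh library 1 or fresh library 2 was left out, 1 when either 12 h library was, and 24 members without organoid library 2. None of the 81 members was called either with a pseudocount of 0.1, with a filter at a mean of 5 RPKM, with library weights or with the family median taken over members of at least 50 RPKM, and 1 was called with only the groups compared and 1 with a replicate block. The 3 calls thus depend on the settings used.

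Rpl10, which completes the large subunit near its catalytic centre, read 14.0 and 20.04 RPKM in fresh cells, 13.9 and 10.1 at 12 h, 11.9 at 24 h, 12.5 in the 48h-titled library, and 8.56 and 7.42 in organoids. Its values were highest in fresh cells and lowest in organoids, the reverse of the family, without passing on its own scale (organoid to fresh difference -0.99, SE 0.40, limma adjusted p = 0.157). Rpl27 read 13.8 and 15.5, 25.6 and 19.3, 17.8, 21.6, and 4.10 and 12.2 RPKM in the same order, with both organoid values below all others. Rpl24 read 1.15 and 2.35, 4.26 and 0.179, 0.758, 1.69, and 0.0702 and 0.432 RPKM. All 3 have under 50% unique sequence, at 7.87% for Rpl10, 35.9% for Rpl27 and 18.3% for Rpl24.

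Among members with a mean of at least 5 RPKM, the closest to the family's median course were Rpl6, Rpl23 and Rpl4, whose SD over the 8 libraries after subtracting the family median was 0.0984, 0.139 and 0.149 on the log2 scale. Among the farthest were Rpl27 and Rps12, at 1.17 and 1.07. Rps12 ranged from 1.20 RPKM in 12 h library 1 to 15.0 RPKM at 24 h and has 9.89% unique sequence.

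Uniqueness also went with the size of the change, as it did with mean level. The log2(RPKM + 1) scale understates the change of low members, and the part of level in this relation was not tested. Across the 81 tested members Spearman's rho between unique share and log2 difference was 0.41 for 12 h against fresh cells, 0.51 for organoids against fresh cells and 0.39 for organoids against 12 h, and the organoid values were 0.48 and 0.32 without organoid library 1. The 28 tested members with at least 50% unique sequence had median differences of 0.87, 1.88 and 0.92 in these comparisons, and the 53 others 0.57, 1.08 and 0.40. Without organoid library 1 the organoid medians were 0.99 and 0.094 for the former and 0.60 and -0.11 for the latter. The length of the pyrimidine run went with the change less clearly. The 24 tested members with a run of at least 8 had median differences of 0.72, 1.53 and 0.89, and the 37 with a shorter run 0.69, 1.46 and 0.46. Without organoid library 1 the organoid to fresh medians were 0.86 and 0.85. These are descriptions with no test, and comparisons that share the fresh or the 12 h libraries are not independent.

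Other genes of the translation machinery were read from chosen lists. Of 20 further messages known to begin with a TOP motif, none passed at 12 h (median 0.47) and 3 rose in organoids against fresh cells (median 1.12, with 20 of 20 above 0), where 5.15% of all genes rose. The list's median was 0.82 without organoid library 1 and 1.64 without library 2. No gene of the list passed without organoid library 1 or either fresh library, 1 passed without either 12 h library and 8 without organoid library 2. The 3 were Npm1, a nucleolar chaperone, at 1.93 (SE 0.36), the elongation factor subunit Eef1b2 at 1.85 (SE 0.41) and Rack1, a scaffold bound to the small subunit, at 1.53 (SE 0.33), with limma adjusted p = 0.0259, 0.0387 and 0.0380. Rack1 read 81.3 and 99.3 RPKM in fresh cells, 183 and 200 at 12 h, 265 at 24 h, 229 in the 48h-titled library, and 306 and 222 in organoids. Fau, whose product is a ubiquitin-like fusion to a ribosomal protein, did not pass. Fau read 18.9 and 19.4 RPKM in fresh cells, 26.6 and 31.5 at 12 h, and 71.9 and 19.9 in organoids.

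Ribosomal proteins of the mitochondrion, which are built into a separate ribosome, gave the larger number of calls. Of 77 tested, 8 rose at 12 h and 12 in organoids against fresh cells, none fell in either, and none passed between organoids and 12 h, where 3.09%, 5.15% and 1.38% of all genes rose. Without fresh library 1 or 2 none of the 77 passed, as no gene of the table did. The 12 h calls were 0 without either 12 h library and 12 without either organoid library. The organoid calls against fresh cells were 4 without either 12 h library, 0 without organoid library 1 and 8 without organoid library 2. Their medians were 0.91, 1.03 and 0.05, against 0.69, 1.46 and 0.66 for the cytosolic members. Mrpl34 had the largest differences, from 12.0 ± 6.40 RPKM in fresh cells to 107 ± 13.1 at 12 h and 114 ± 5.89 in organoids (SD, n = 2 each). In single libraries the mitochondrial list's median difference from fresh cells was 1.19 and 0.96 in the 2 organoid libraries, close together, where the cytosolic members' was 2.05 and 0.82.

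Genes for making ribosomes had median differences of the opposite sign to the ribosomal proteins in organoids. Of 23 assembly and ribosomal RNA transcription genes, Nop10 rose at 12 h (1.68, SE 0.35, limma adjusted p = 0.0430), Nop10 and Npm1 rose in organoids against fresh cells, and no others passed. The 12 h call was lost when any 1 of the fresh, 12 h and organoid libraries was left out, and the organoid calls without either fresh library or organoid library 1. Nop10, a small protein of the pseudouridylation particles, read 45.5 and 29.9 RPKM in fresh cells, 137 and 106 at 12 h, 96.0 at 24 h, 159 in the 48h-titled library, and 157 and 146 in organoids. The list's median differences were 0.32 at 12 h, -0.84 in organoids against fresh cells and -0.99 in organoids against 12 h. In organoid library 1 the median against fresh cells was -1.33 and in library 2 -0.08, so the low organoid median went with the library in which the ribosomal proteins were highest. Against 12 h the list's median was -0.18 without organoid library 1. Of 6 tested chaperones dedicated to ribosomal proteins none passed, with medians of 0.24, -0.68 and -1.05. Without organoid library 1 the chaperones' organoid medians were -0.18 against fresh cells and -0.47 against 12 h. Among 14 genes of TOR signalling and TOP control, Eif4ebp2, a translation repressor, rose at 12 h (1.68, SE 0.35, limma adjusted p = 0.0430) and no other gene passed in any comparison. It did not pass when any 1 of the fresh and 12 h libraries was left out. Myc, a transcription factor known to drive ribosome production, read 182 and 315 RPKM in fresh cells, 79.6 and 152 at 12 h, 183 at 24 h, 46.6 in the 48h-titled library, and 18.2 and 68.3 in organoids. Its organoid values were below its fresh values, with a difference of -2.72 (SE 0.67, limma adjusted p = 0.0515) that did not pass.

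**Figure D5:**
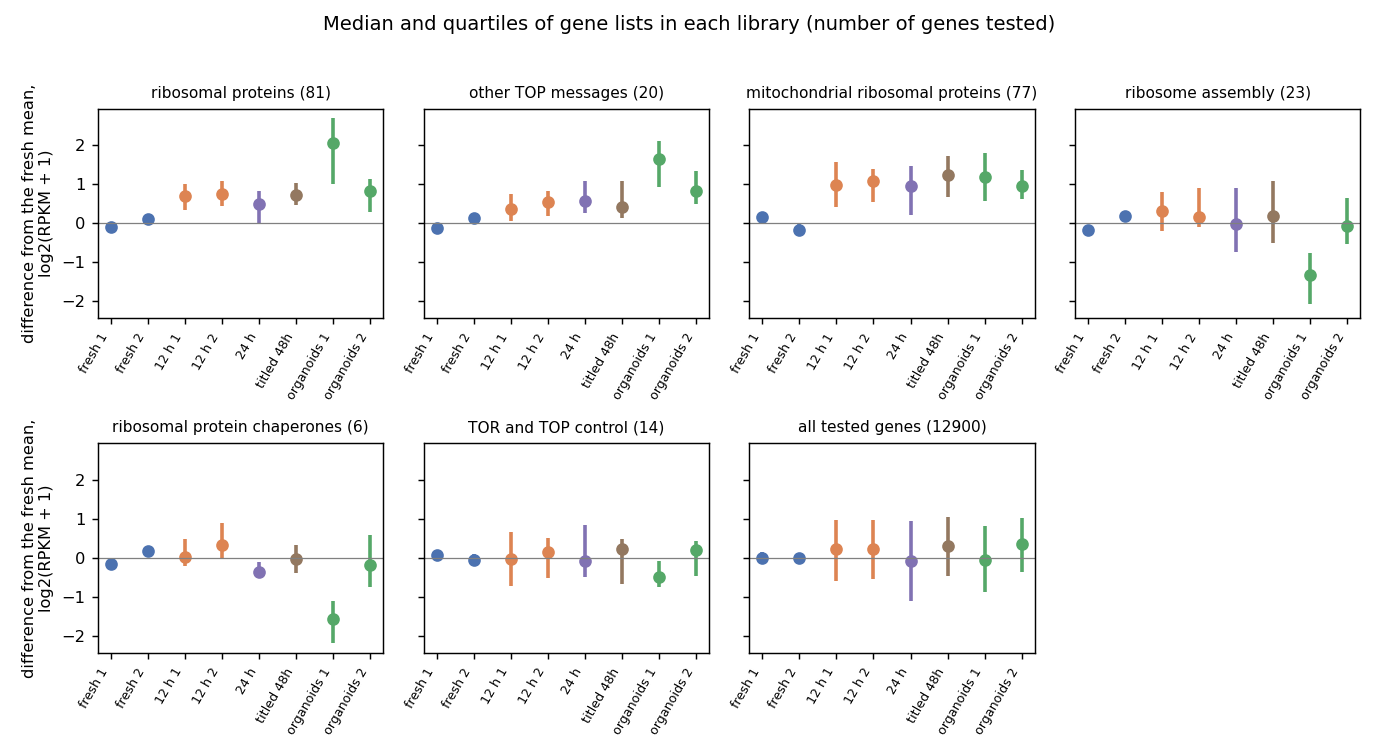
Points give the median over each gene list, and bars its quartiles, of log2(RPKM + 1) minus the fresh mean in each library (number of genes tested in brackets). Ribosomal proteins stand at 2.05 in organoid library 1 and 0.82 in library 2, mitochondrial ribosomal proteins at 1.19 and 0.96, and ribosome assembly genes at -1.33 and -0.08.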

How the data were processed

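RNA of 8 libraries was made into cDNA by Smart-seq2 and tagmented with Nextera XT, per the labels' protocols. The authors deposited one table of RPKM values per Ensembl gene, and the submitters' processing notes name edgeR and the build GRCm38. The aligner, the counting of reads that fit several genes, strand and annotation are not given in the sources, and the values are relative, so they do not measure RNA per cell. Of 47729 identifiers, 47224 matched GENCODE M21 (GRCm38) and 505 did not. The members and lists were chosen with earlier results of these data known.

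Depth was estimated from the step between low values. The step was chosen to make the largest share of low values whole multiples of it within 0.01, and that share was 88.7 to 92.6%. A gene needed 1 RPKM or more in 2 or more libraries (12900 genes), and was tested on log2(RPKM + 1) with limma 3.58.1 (R 4.3.3), moderated with a trend over 5 groups (residual df 3, prior df 3.65), two-sided, Benjamini-Hochberg threshold 0.05. Fold changes on this scale understate those of low genes. The fit rests on few residual degrees of freedom. In the fit relative to the family the spread was taken wholly from the trend over levels. Named members were the passing ones (at most 8 a direction), the 5 highest and 5 lowest by mean RPKM, the 3 most and 3 least variable relative to the family, the stalk, Rpsa, Rps6, Rpl5, Rpl11 and the paralog pairs. From each other list up to 4 passing genes were eligible, with Fau and Myc. Some genes that these rules select are not reported here, though counts, sums and medians include them. Where a member outside these is named, it was chosen after its values were seen. Alternatives were another pseudocount and filter, median centring, quantile normalization, only the groups compared, library weights, a replicate block and leaving out each library. For the other lists, subunits, uniqueness and tract groups, leaving out each library was added after seeing the data. Start windows are from RefSeq (GRCm38.p6), and 20 members without an entry were left out there. Protein identity was computed from translated GENCODE coding sequences.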

Additional observations from a re-analysis of the deposited data

How the results depend on the processing

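Counts of members called moved with the processing, while the sign of the members' median difference turned in 1 case only: organoids against 12 h, at 0.66 with all libraries, -0.012 without organoid library 1 and 1.26 without organoid library 2. For 12 h against fresh cells (1 member higher, 1.23% beside 3.09% of all genes), 0 were called without a filter, beside 0.33% of all genes. With libraries centred on their medians 0 were called, beside 2.33%. Quantile normalization gave 3 (3.70% beside 3.47%) and library weights 3 (3.70% beside 6.74%). When only the groups compared were fitted, 8 were called (9.88% beside 4.37%). With centring the members' median difference at 12 h was 0.33, beside -0.13 for all genes tested. Organoids against fresh cells gave 6 members higher in the main fit (7.41% beside 5.15% of all genes). With the filter set to a mean of 5 RPKM or more, 19 of 70 members were called (27.1% beside 9.66% of all genes). Without a filter 1 was called (1.19% beside 0.98%), and with centring 1 (1.23% beside 4.31%), a smaller share than of all genes. Quantile normalization gave 11 (13.6% beside 6.15%) and library weights 18 (22.2% beside 5.83%). With 1 library left out, 0 to 46 members were called. For organoids against 12 h (0 members), leaving out 1 library gave 0 to 14. Relative to the family, 12 h against fresh cells gave 3 members with library weights and 0 to 1 with 1 library left out. Organoids against fresh cells (3 members) gave 0 with a pseudocount of 0.1, with a mean of at least 5 RPKM, with library weights and with the family median taken over members of at least 50 RPKM, 9 without a filter, 1 with only the groups compared and 0 to 24 with 1 library left out. Organoids against 12 h gave 0 to 8. For these alternatives the shares of all genes relative to the family are not given here. The ratio of shares between the library titled 48h and fresh cells, 1.87, was 1.67 without the 50 other genes of highest mean. With RPKM multiplied by summed exon length, the ratio of organoids to fresh cells moved from 3.56 to 4.14. That of organoids to 12 h moved from 1.93 to 2.33. Over the denominators and lengths tried, the ratio of 12 h to fresh cells lay between 1.73 and 1.91, and that of 24 h between 1.54 and 1.70. Leaving out a library reduces the residual degrees of freedom, and the library left alone in its group is assumed to vary like the other groups. Beyond that the cause was not tested. Counting depth limits members near 3 reads, such as Rpl24 and the 3 untested paralogs.

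The labels give the groups shared replicate numbers without saying that a number marks a shared animal or day. Deviations of same-numbered libraries correlated at 0.19 (fresh and 12 h), 0.22 (fresh and organoids) and 0.018 (12 h and organoids). No value for unpaired libraries was computed, so these correlations cannot decide whether the numbers mark pairs. The main fit did not take them as pairs, and a fit with a replicate block is given beside it. With the replicate block, organoids against fresh cells gave 11 members higher (13.6%, beside 5.99% of all genes) and 1 relative to the family. In the same fit 12 h against fresh cells gave 1 (1.23% beside 2.64%), and organoids against 12 h gave 0, beside 1.30%.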
